A study of Mus musculus with 100 samples.

Results

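The 9 genes described here, Msr1, Mrc1, Cd163, Marco, Trem2, Gpnmb, Cd68, Csf1r and Chil3, are known from macrophages that clear debris and take part in tissue repair. They were taken by name from a table of RNA-seq counts of mouse knee joints, and all 9 were found among its 17310 genes. The table holds 100 libraries of whole knee joints from MRL/MpJ, C57BL/6 and STR/ort mice, strains that GEO's labels rank from not susceptible to highly susceptible to post-traumatic osteoarthritis (PTOA). The right knee of mice aged 10 weeks was injured by a single compression of the tibia at 10–12 N, which tears the anterior cruciate ligament (ACL), and the uninjured knee of injured mice served as the contralateral control. The 0-day groups were joints collected before any injury, with 4 libraries per strain. At 1-day and 2-weeks post-injury each strain had 5 injured and 5 contralateral libraries. At 1-week each strain had 5 injured libraries, C57BL/6 had 5 contralateral libraries, and MRL/MpJ and STR/ort had 4 each, which gave 21 groups in all. The mice carried no transgene in the labels and were not treated with a test drug, though by the study's methods injured mice were anaesthetised with isoflurane and given buprenorphine for pain (for 0-day mice neither is stated), and their sex is not given in the sources used here.

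Macrophages take up dead cells, lipoproteins and debris through scavenger receptors on their surface and break the cargo down in lysosomes. Joints hold macrophages of the synovial lining, and injury also draws monocytes from the blood, which turn into macrophages in the tissue. Msr1, Marco, Mrc1 and Cd163 encode uptake receptors, Cd68 and Gpnmb encode glycoproteins of endosomes and lysosomes, Trem2 encodes a lipid-sensing receptor, and Csf1r encodes the receptor that keeps macrophages alive. Chil3 encodes a secreted chitinase-like protein, which is used as a marker of macrophages in a state associated with repair. None of the 9 genes is restricted to macrophages in every tissue.

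Levels are given as CPM, counts scaled to the same total in every library, and a gene was called where edgeR's quasi-likelihood test gave an adjusted p under 0.05 over all genes and the fold change was above 1.5, the thresholds in the study's methods. In RNA of a whole joint, fewer cells of a type and less RNA per cell cannot be told apart. Each library held between 6182016 and 20986027 counts, and the labels put the 2-weeks libraries in another experimental batch than those of 0-day, 1-day and 1-week, so no gene was tested between 2-weeks and the earlier times. Macrophage genes were detected in all groups, with a summed level of the 12 pan-macrophage marker genes of 666.4–733 CPM in the MRL/MpJ 0-day libraries. Markers of skin were near 0 over all libraries, with Krt10 at a mean of 1.89 CPM. Muscle came along with the dissected joints, and 8 genes of fast muscle summed to between 13270 and 105900 CPM per library. The library least like the rest of its group was replicate 4 of injured MRL/MpJ joints at 2-weeks, whose log2 levels correlated with the mean of the others at r = 0.9866, and no pair of libraries within a group was identical.

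In the mouse build GRCm38.p6, to which the mm10 alignment corresponds, Msr1 spans chr8:39543232-39642750 (minus strand), Mrc1 chr2:14229414-14332023 (plus), Cd163 chr6:124304636-124330529 (plus), Marco chr1:120474538-120505024 (minus), Trem2 chr17:48346401-48352276 (plus), Gpnmb chr6:49036518-49058182 (plus), Cd68 chr11:69664213-69666170 (minus) and Chil3 chr3:106147554-106167564 (minus). RefSeq promoter sequences of this build were searched for 7 of the 9 genes, and Msr1 and Csf1r were not among them. Each window of 250 bases before the start that the promoter entry gives, which for Cd163 lies inside the span above, was searched on both strands for 4 motifs, GAGGAA (the core bound by PU.1, the master factor of macrophages), TGANTCA (AP-1), CACGTG (the palindromic E-box) and TCATGTG (the core bound by MITF and its relatives). These motifs occurred in 23.3%, 6.75%, 6.02% and 3.25% of 32851 promoter windows of the same length. The windows of Trem2, Gpnmb and Cd68 are printed 5′ to 3′ with motif matches in capitals, because these genes took different courses after injury in the same joints.
Trem2 (chr17:48346151-48346400, plus strand): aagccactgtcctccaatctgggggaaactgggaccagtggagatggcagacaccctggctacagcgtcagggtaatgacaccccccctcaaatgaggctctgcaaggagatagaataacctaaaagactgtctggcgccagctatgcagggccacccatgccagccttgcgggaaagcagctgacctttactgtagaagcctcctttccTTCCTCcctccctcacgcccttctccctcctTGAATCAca
Gpnmb (chr6:49036268-49036517, plus strand): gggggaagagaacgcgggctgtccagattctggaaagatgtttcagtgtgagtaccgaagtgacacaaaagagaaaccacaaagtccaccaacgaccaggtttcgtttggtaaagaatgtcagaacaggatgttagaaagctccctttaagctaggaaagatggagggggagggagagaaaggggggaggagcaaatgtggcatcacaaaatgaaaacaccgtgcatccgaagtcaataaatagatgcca
Cd68 (chr11:69666171-69666420, minus strand): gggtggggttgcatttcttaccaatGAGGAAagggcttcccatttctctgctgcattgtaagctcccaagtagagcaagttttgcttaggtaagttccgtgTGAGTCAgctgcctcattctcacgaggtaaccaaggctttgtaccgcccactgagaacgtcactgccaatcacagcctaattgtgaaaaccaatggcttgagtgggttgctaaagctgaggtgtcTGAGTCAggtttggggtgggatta
In the Trem2 window the match to GAGGAA lay on the minus strand, printed here as TTCCTC on the plus strand, 40 to 35 bases before the start, and an AP-1 match lay 9 to 3 bases before it. The Cd68 window held GAGGAA at 225 to 220 bases and AP-1 matches at 149 to 143 and 24 to 18 bases before the start. The Gpnmb window held none of the 4 motifs, which says only that these letters are not in this window. Of the windows not printed, that of Mrc1 held 3 matches to GAGGAA and that of Marco 1, and those of Cd163 and Chil3 held 0 matches to any of the motifs. A link between the motifs and the response to injury was not tested. The bases are those of the C57BL/6J reference, and bases of MRL/MpJ and STR/ort may differ.

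The 9 genes differed widely in level before injury, as the plot of length-scaled levels shows. Levels between genes were compared per kilobase of exon. At 0-day in C57BL/6 joints Chil3 was the highest at 452 CPM per kb, followed by Cd68 at 51.05, Csf1r at 31.9, Mrc1 at 23.3 and Cd163 at 12.7 CPM per kb, steps that each exceeded the spread between the 4 libraries. Gpnmb (3.29 ± 0.636, SD), Trem2 (1.61 ± 0.276), Msr1 (1.39 ± 0.133) and Marco (0.436 ± 0.252) were lower, and the levels of Trem2 and Msr1 differed by less than the SD of Trem2 but more than that of Msr1. The order of the first 5 genes was the same in all 3 strains at 0-day. At 1-day in injured STR/ort joints Msr1 was the fifth highest of the 9 genes at 14.6 ± 1.43 CPM per kb, above Cd163 at 7.07 ± 0.749.

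**Figure D1:**
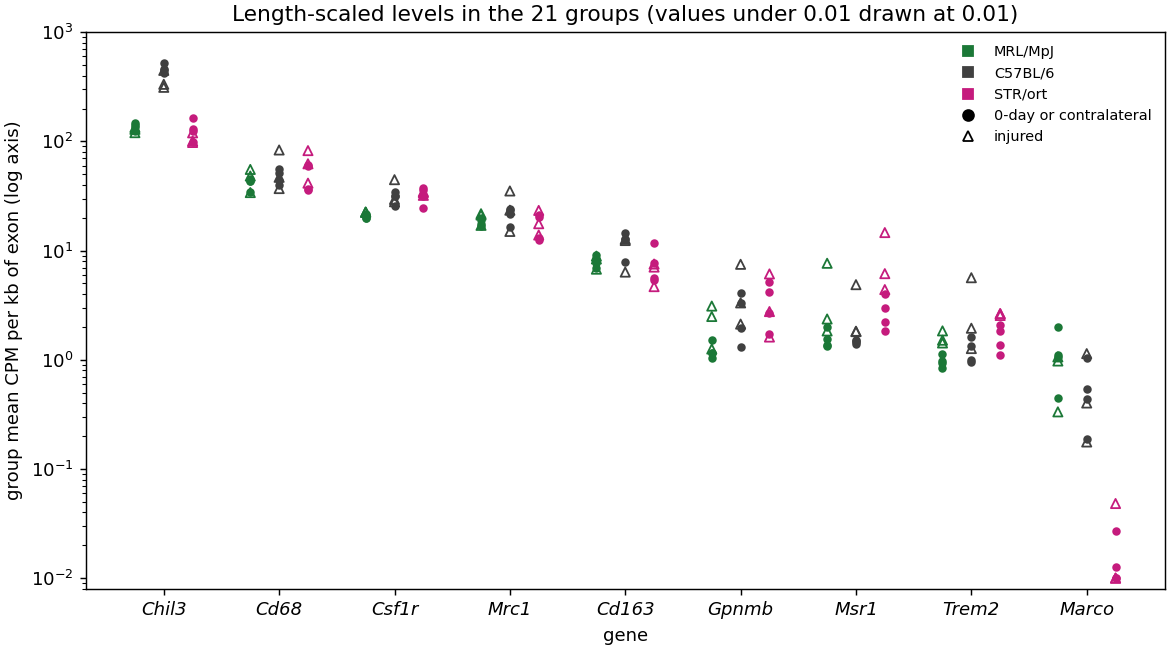
Length-scaled levels of the 9 genes. Each point is the mean CPM per kb of exon of 1 of the 21 groups on a log axis, a circle for 0-day or contralateral joints and a triangle for injured joints, coloured by strain, with values under 0.01 drawn at 0.01. Chil3 lay above the other genes in every group, Marco of STR/ort lay lowest, and Msr1 ranged from 1.34 to 14.6.

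**Figure D2:**
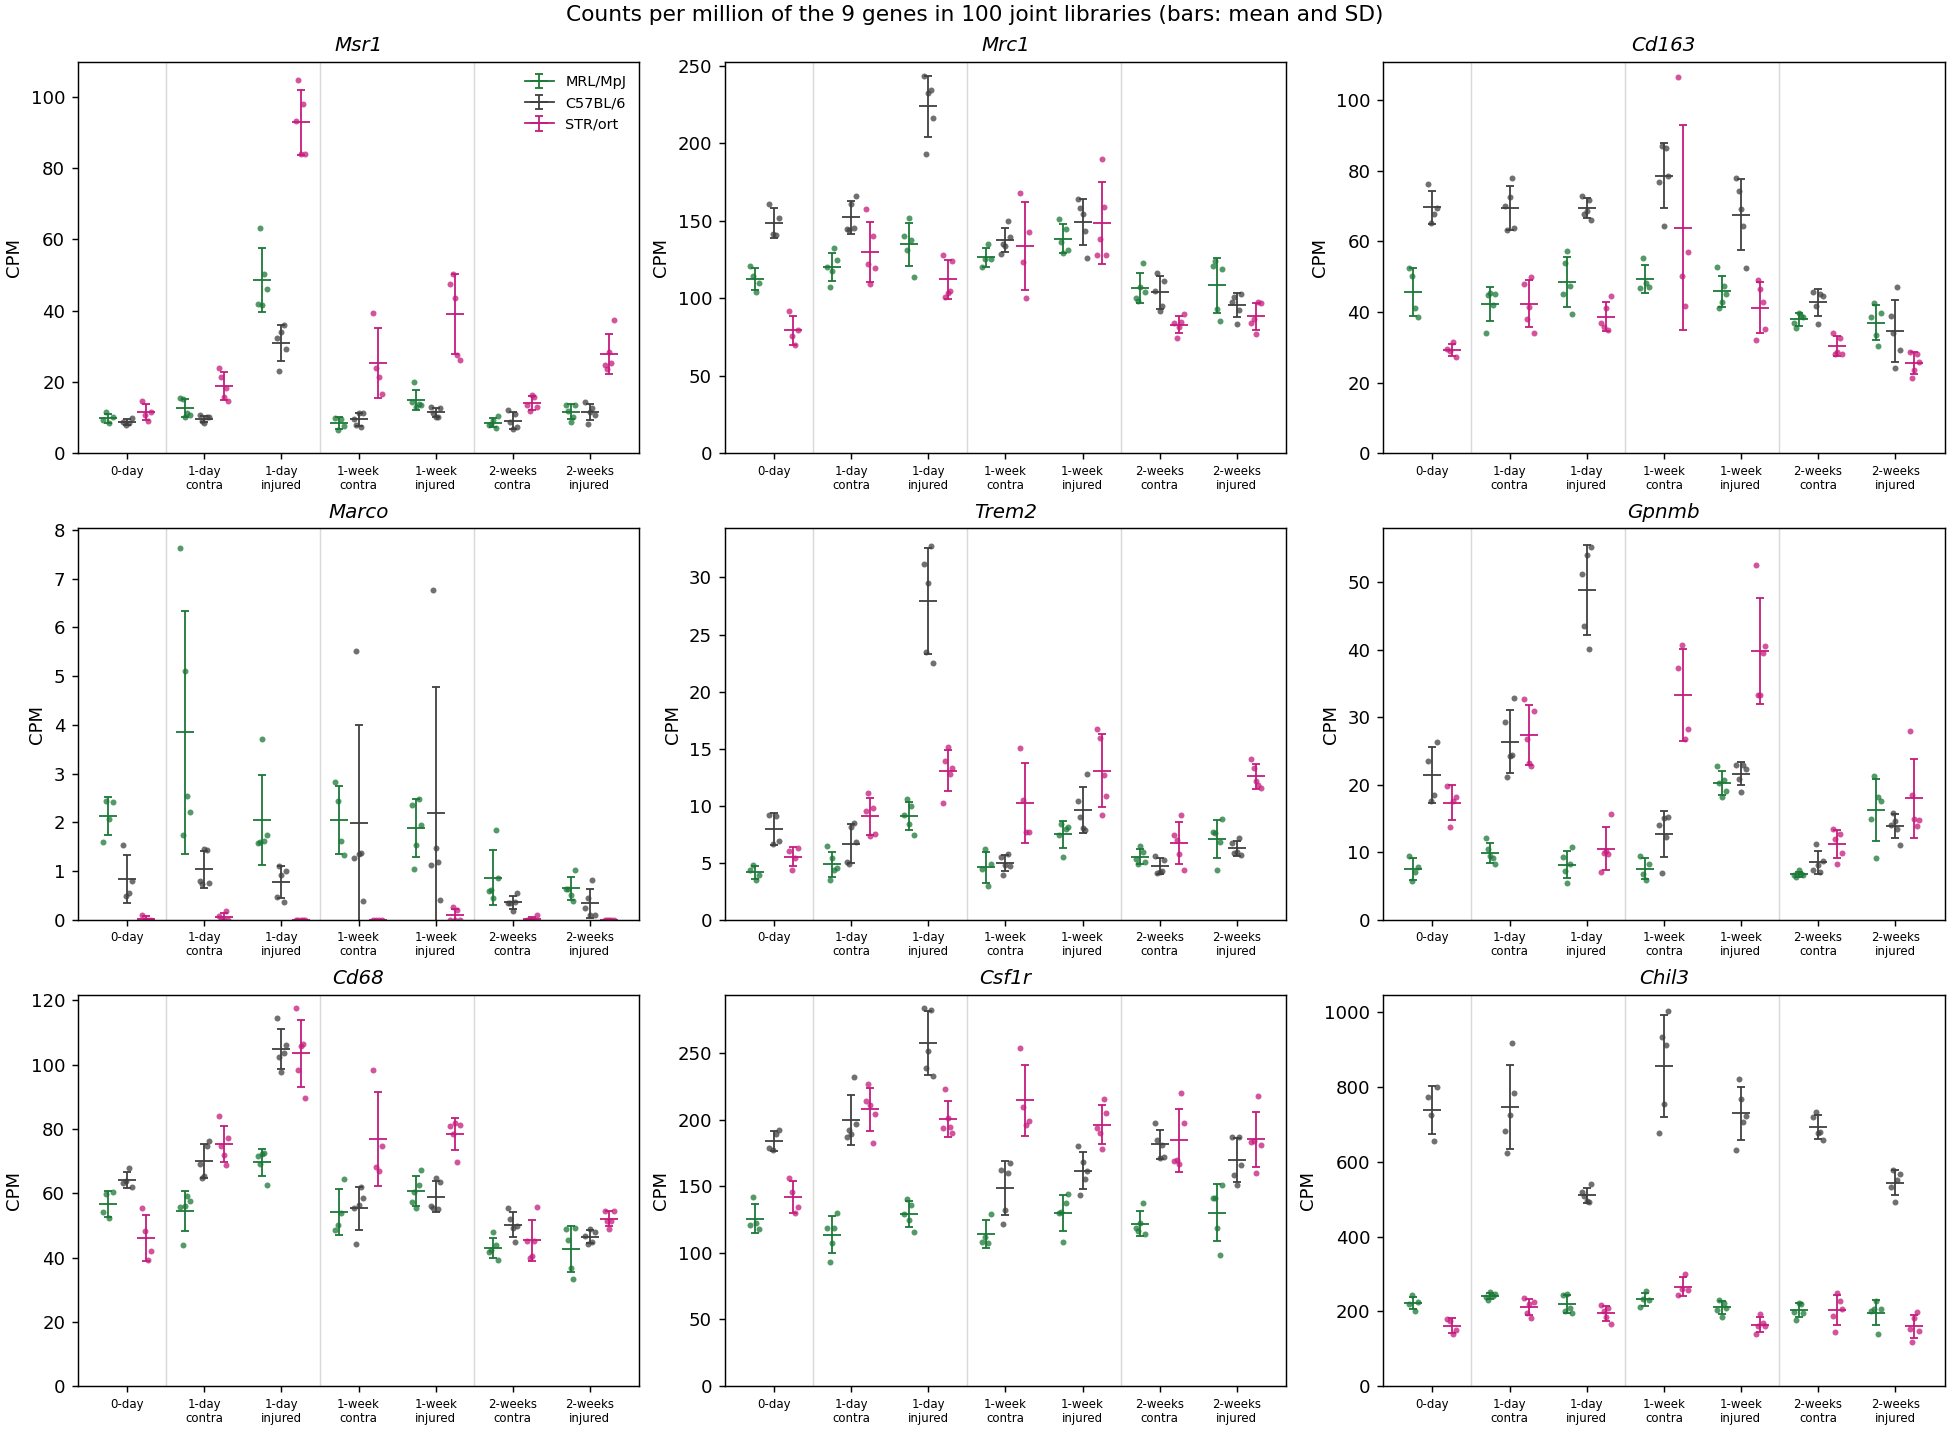
CPM of each gene in each of the 100 libraries, by time point and joint (contra, contralateral), with the group mean and SD as bars and each point a library. Msr1 stood highest in injured joints at 1-day, Gpnmb of STR/ort was low in injured joints at 1-day, and Chil3 was highest in C57BL/6 throughout.

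At 1-day post-injury the question was which of the genes changed with ACL rupture in each strain. Msr1 rose in the injured joints of all 3 strains, Trem2 rose in MRL/MpJ and C57BL/6, and Gpnmb rose in C57BL/6 and fell in STR/ort. In MRL/MpJ 2 of the 9 genes were called, against 2.02% of all genes tested. In C57BL/6 it was 3 of 9, against 5.6% of all genes, and in STR/ort 2 of 9, against 4.31%. The median log2 fold change over the 9 genes was 0.20 in MRL/MpJ, 0.56 in C57BL/6 and -0.13 in STR/ort, where the medians over all genes were 0.01, -0.02 and -0.02.

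Msr1, the class A scavenger receptor that takes up modified lipoproteins, had 41.6, 41.8, 46.2, 50.2 and 63.1 CPM in injured MRL/MpJ joints at 1-day and 10.2, 10.7, 11.4, 15.2 and 15.6 CPM in contralateral joints. In C57BL/6 it had 23.0, 29.3, 32.4, 34.0 and 35.9 CPM in injured and 8.57, 9.11, 10.1, 10.1 and 10.7 CPM in contralateral joints. In STR/ort the values were 83.8, 84.0, 93.3, 98.0 and 105 CPM in injured and 14.7, 15.9, 18.4, 21.3 and 24.0 CPM in contralateral joints. Injured and contralateral libraries did not overlap in any strain, and the injured groups of the 3 strains did not overlap each other, STR/ort being the highest and C57BL/6 the lowest. The log2 fold change was 1.97 ± 0.14 in MRL/MpJ (SE, adjusted p = 5.13e-11), 1.67 ± 0.15 in C57BL/6 (adjusted p = 8.91e-10) and 2.28 ± 0.13 in STR/ort (adjusted p = 7.05e-13), which is 3.92-, 3.19- and 4.84-fold.

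Trem2, which senses lipids and dying cells and signals through the adaptor Tyrobp, was at 22.5, 23.5, 29.6, 31.2 and 32.8 CPM in injured C57BL/6 joints at 1-day and at 4.87, 5.05, 6.79, 8.12 and 8.50 CPM in contralateral ones. In MRL/MpJ it was at 7.41, 8.35, 9.18, 9.93 and 10.6 CPM in injured and at 3.47, 4.40, 4.5, 5.42 and 6.45 CPM in contralateral joints. Injured libraries of both strains lay above all contralateral ones, by 4.10-fold in C57BL/6 (log2 2.03 ± 0.15, adjusted p = 7.09e-11) and 1.91-fold in MRL/MpJ (log2 0.93 ± 0.17, adjusted p = 0.000841). In STR/ort, at 10.3, 12.8, 13.3, 13.9 and 15.1 CPM in injured and 7.38, 7.50, 9.57, 9.77 and 11.1 CPM in contralateral joints, the groups overlapped. The STR/ort difference of 1.43-fold (log2 0.51 ± 0.15, adjusted p = 0.028) was under the fold threshold.

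Gpnmb, a transmembrane glycoprotein of lysosomes that is abundant in lipid-laden macrophages and in osteoclasts, moved in opposite directions at 1-day. It had 40.1, 43.5, 51.2, 54.0 and 55.1 CPM in injured C57BL/6 joints and 21.2, 24.3, 24.4, 29.3 and 32.8 CPM in contralateral ones. In STR/ort it had 7.0, 9.80, 9.92, 10.2 and 15.7 CPM in injured joints and 22.8, 23.3, 26.7, 31.0 and 32.7 CPM in contralateral joints. Every injured C57BL/6 library was thus above, and every injured STR/ort library below, the contralateral libraries of its strain (log2 0.89 ± 0.15, adjusted p = 6.27e-05, and -1.40 ± 0.16, adjusted p = 3.13e-07). In MRL/MpJ the injured libraries at 5.41–10.8 CPM and the contralateral ones at 8.19–12.0 CPM overlapped, and the gene was not called.

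The remaining genes other than Marco changed by less than 1.5-fold between injured and contralateral joints at 1-day. Cd68, the lysosomal glycoprotein used to stain macrophages, was higher in every injured library than in the contralateral libraries of its strain, with log2 fold changes of 0.37 ± 0.08 in MRL/MpJ (adjusted p = 0.00255), 0.58 ± 0.07 in C57BL/6 (adjusted p = 1.05e-06) and 0.44 ± 0.07 in STR/ort (adjusted p = 0.000128). The mannose receptor gene Mrc1 had a log2 fold change of 0.56 ± 0.09 in C57BL/6 (adjusted p = 2.27e-05), where injured libraries had 193–244 CPM and contralateral ones 144–166 CPM, and Csf1r one of 0.37 ± 0.08 (adjusted p = 0.00118). Chil3 was lower in C57BL/6, by 1.46-fold, with a log2 fold change of -0.55 ± 0.09 (adjusted p = 2.37e-05) and no overlap between 492–541 CPM in injured and 623–917 CPM in contralateral joints. The 12 neutrophil genes summed to 10910–13920 CPM in these injured and 15690–19430 CPM in these contralateral libraries, and all 12 were lower with an edgeR adjusted p under 0.05 and a change under the fold threshold (median log2 -0.47). Their part in the difference was not tested. Cd163, which takes up haemoglobin bound to haptoglobin, was at 65.9–72.9 CPM in injured and 63.2–77.8 CPM in contralateral C57BL/6 joints, and Marco was called in no strain, with a log2 fold change of -0.87 ± 0.35 in MRL/MpJ (adjusted p = 0.189).

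**Figure D3:**
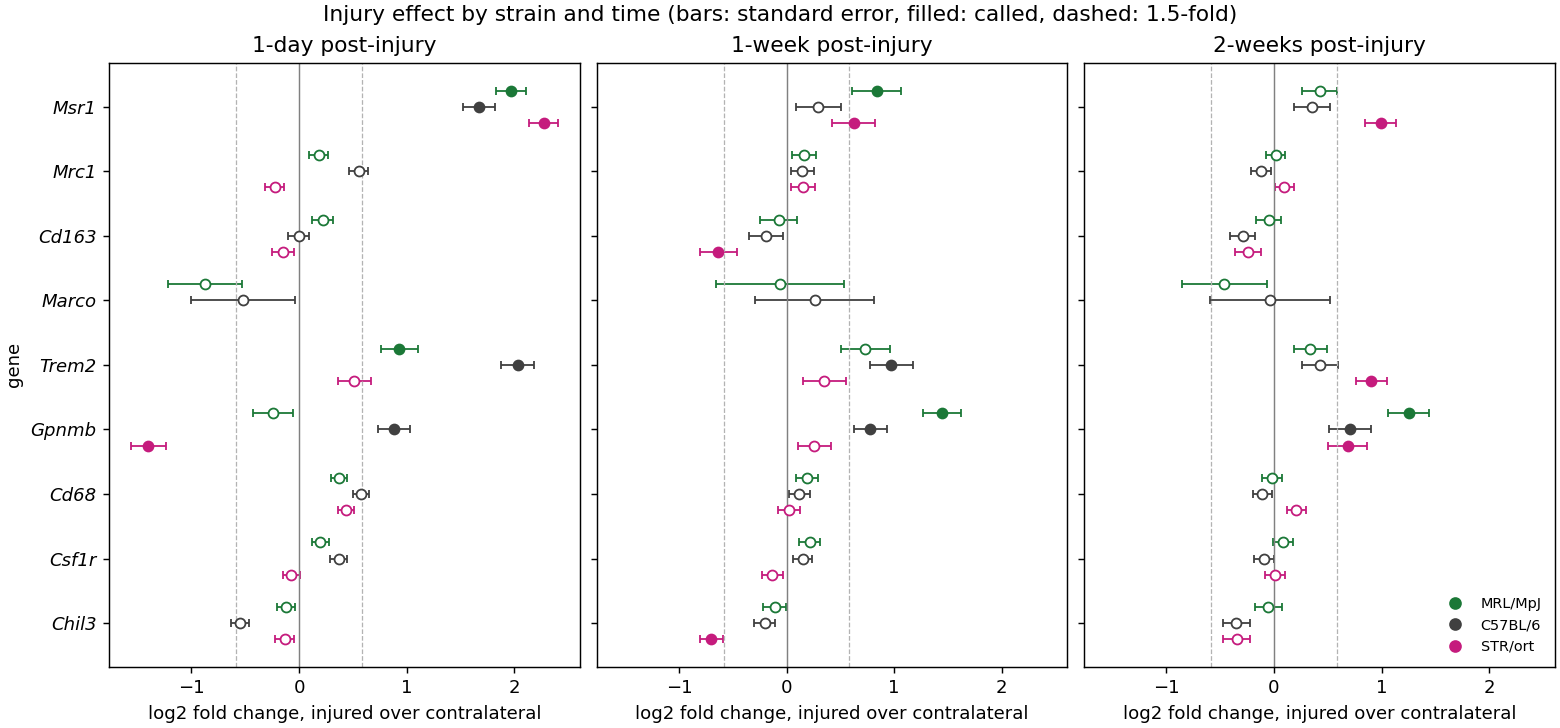
Log2 fold change of injured over contralateral joints for each gene, by time point and strain, with the standard error as bars, filled points for called changes and dashed lines at 1.5-fold. Marco of STR/ort is not drawn because its libraries were at or near 0, and the called changes lie on Msr1, Trem2 and Gpnmb except for Cd163 and Chil3 of STR/ort at 1-week.

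Whether the response to injury differed between strains was tested as an interaction of strain and injury. Each pair of these comparisons shares the libraries of 1 strain. At 1-day STR/ort against C57BL/6 had 3 of 9 genes called, against 2.66% of all genes: the response of STR/ort was lower for Gpnmb (log2 difference -2.29 ± 0.22, adjusted p = 1.51e-07), Trem2 (-1.52 ± 0.22, adjusted p = 4.38e-05) and Mrc1 (-0.78 ± 0.12, adjusted p = 0.00015). C57BL/6 against MRL/MpJ had 2 of 9 called, against 0.318% of all genes, both higher in C57BL/6: Trem2 (1.10 ± 0.23, adjusted p = 0.0242) and Gpnmb (1.13 ± 0.24, adjusted p = 0.0242). STR/ort against MRL/MpJ had 1 of 9 called, against 0.162%, which was Gpnmb (-1.16 ± 0.25, adjusted p = 0.0327). The last 3 calls did not hold in every fit that left out 1 library. Trem2 of C57BL/6 against MRL/MpJ lost its call without contralateral MRL/MpJ replicate 1 or 3, injured MRL/MpJ replicate 3, or injured C57BL/6 replicate 1 or 4 (0.97 to 1.07, highest adjusted p = 0.0841). Gpnmb of the same pair lost it without contralateral MRL/MpJ replicate 1, injured MRL/MpJ replicate 3, injured C57BL/6 replicate 1 or contralateral C57BL/6 replicate 3 (1.01 to 1.11, highest adjusted p = 0.0743). Gpnmb of STR/ort against MRL/MpJ lost it in 16 of 20 such fits (-1.19 to -1.02, highest adjusted p = 0.124), with 2 RUVg factors, terms for unwanted variation estimated from housekeeping genes (adjusted p = 0.0513), and when those strains alone were fitted (adjusted p = 0.0778). The response of Msr1 was higher in STR/ort than in C57BL/6 by 0.60 ± 0.20, which missed the threshold (adjusted p = 0.0824) and passed it in 2 of 20 fits that left out 1 library, those without contralateral replicate 1 or injured replicate 5 of STR/ort. At 1-week STR/ort against MRL/MpJ had 2 of 9 called, against 0.884%: the response of STR/ort was lower for Gpnmb (-1.19 ± 0.23, adjusted p = 0.00791) and Chil3 (-0.59 ± 0.15, adjusted p = 0.0476). The call of Chil3 was lost in 15 of 18 fits that left out 1 library (-0.63 to -0.52, highest adjusted p = 0.125), and with RLE size factors, DESeq2, 1 RUVg factor or a fit of those groups alone (-0.58 to -0.57).

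The other interactions gave no calls among the 9 genes with edgeR. At 1-week these were STR/ort against C57BL/6 (0.491% of all genes called), with 4 genes at an unadjusted p under 0.05 and 0 called by DESeq2, and C57BL/6 against MRL/MpJ (0% of all genes), with 1 gene at an unadjusted p under 0.05 and 0 called by DESeq2. At 2-weeks they were STR/ort against MRL/MpJ (0.451%, with 3 genes at an unadjusted p under 0.05), STR/ort against C57BL/6 (0.0462%, with 3) and C57BL/6 against MRL/MpJ (0%, with 0), and DESeq2 called 0 in each. Over all genes edgeR called 0 in the C57BL/6 against MRL/MpJ interactions of 1-week and 2-weeks, where 505 and 984 genes had an unadjusted p under 0.05 and DESeq2 called 0 and 2.

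Other macrophage genes moved too at 1-day, so each gene was set against the mean of 12 pan-macrophage genes in the same library. That mean was higher in injured joints by 0.44 (log2) in MRL/MpJ, 0.77 in C57BL/6 and 0.34 in STR/ort. Of the 12 genes 4 were called higher in MRL/MpJ, 9 in C57BL/6 and 3 in STR/ort, and no call was in the other direction. Among its most abundant genes Ctss, a lysosomal protease, rose in all 3 strains (log2 0.70, 1.08 and 0.69), C1qa, a complement subunit, rose in C57BL/6 (0.73, adjusted p = 5.47e-06), and so did Adgre1, the F4/80 antigen (0.94, adjusted p = 1.92e-08). Relative to this mean Msr1 was higher in injured joints by 1.49 ± 0.17 (log2, SE) in MRL/MpJ, 0.87 ± 0.11 in C57BL/6 and 1.96 ± 0.12 in STR/ort. Each of these had p = 0.00794 in a two-sided exact permutation test over libraries, the smallest value that 5 against 5 allows (adjusted p = 0.028 over 81 tests). Trem2 exceeded the mean in C57BL/6 (1.28 ± 0.15, exact p = 0.00794, adjusted p = 0.028). Mrc1 was lower relative to the mean by -0.28, -0.22 and -0.55 and Csf1r by -0.25, -0.40 and -0.39, with adjusted exact p of 0.028 to 0.0415. Gpnmb of STR/ort (-1.74 ± 0.22) and Cd163 (-0.77 ± 0.07), Marco (-1.14 ± 0.34) and Chil3 (-1.31 ± 0.11) of C57BL/6 also fell relative to the mean, as did Chil3 of MRL/MpJ (-0.58 ± 0.09), each with an adjusted exact p of 0.028. With the median of the 12 genes in place of their mean, the calls of Msr1, of Gpnmb of STR/ort and of Trem2, Cd163 and Chil3 of C57BL/6 held (adjusted exact p = 0.0378). The others were lost, and Mrc1 came to 0.07, 0.02 and -0.30 and Csf1r to 0.09, -0.16 and -0.15 in MRL/MpJ, C57BL/6 and STR/ort. Both genes of MRL/MpJ and Mrc1 of C57BL/6 thus turned sign, and the others kept their direction at a smaller size.

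At 1-week Gpnmb rose in MRL/MpJ and C57BL/6, Trem2 in C57BL/6, and Msr1 in MRL/MpJ and STR/ort. In MRL/MpJ 2 of 9 were called, against 3.13% of all genes, in C57BL/6 2 of 9, against 5.82%, and in STR/ort 3 of 9, against 9.21%. Gpnmb led in MRL/MpJ, with 18.2, 19.1, 20.3, 20.7 and 22.8 CPM in injured and 5.95, 6.76, 8.25 and 9.39 CPM in contralateral joints, and rose 2.73-fold without overlap (log2 1.45 ± 0.18, adjusted p = 1.63e-06). In C57BL/6 Gpnmb was at 19.0–23.0 CPM in injured and 6.96–15.2 CPM in contralateral joints (log2 0.78 ± 0.15, adjusted p = 0.000617) and Trem2 at 7.89–12.8 against 3.94–5.75 CPM (log2 0.97 ± 0.20, adjusted p = 0.001), again without overlap. In STR/ort Gpnmb was not called, at 33.3–52.6 CPM in injured and 26.8–40.7 CPM in contralateral joints. Trem2 of MRL/MpJ had a log2 fold change of 0.73 ± 0.23 that missed the threshold (adjusted p = 0.0601) and passed it with DESeq2 (adjusted p = 0.0251), with 2 RUVg factors (adjusted p = 0.0331) and when these groups alone were fitted (adjusted p = 0.0272).

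Msr1 was still higher in injured STR/ort joints at 1-week, with overlapping groups. It had 26.3, 27.6, 43.6, 47.4 and 50.3 CPM in injured and 16.5, 21.3, 23.9 and 39.4 CPM in contralateral joints, and its call (log2 0.62 ± 0.20, adjusted p = 0.0224) was lost without any 1 of the injured replicates 1, 2 and 3 and the contralateral replicates 2, 3 and 4, with values of 0.47 to 0.59. The call was also lost when these groups alone were fitted (0.63, adjusted p = 0.123). In MRL/MpJ Msr1 had 13.1, 13.6, 13.8, 14.5 and 20 CPM in injured and 6.53, 7.74, 9.68 and 9.95 CPM in contralateral joints (log2 0.84 ± 0.23, adjusted p = 0.0244), and 0.73 (adjusted p = 0.0823) without injured replicate 2, 0.74 (adjusted p = 0.116) without contralateral replicate 2 and 0.80 (adjusted p = 0.075) without contralateral replicate 4. The summed fast muscle level at 1-week was 13270–29170 CPM in injured and 26210–51260 CPM in contralateral STR/ort joints, with 6 of 8 muscle genes lower. With the muscle level as a covariate, an alternative chosen after seeing the data, the calls of Msr1 were lost (STR/ort 0.54, adjusted p = 0.0988, and MRL/MpJ 0.79, adjusted p = 0.0544), and with 2 RUVg factors at values close to those without (0.60, adjusted p = 0.0928, and 0.84, adjusted p = 0.0958).

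Cd163 and Chil3 were lower in injured than in contralateral STR/ort joints at 1-week. Cd163 had 32.2, 35.3, 42.7, 46.6 and 49.0 CPM in injured and 41.6, 50.3, 57.1 and 106 CPM in contralateral joints, so the groups overlapped and 1 contralateral library stood high. Its log2 fold change of -0.63 ± 0.17 (adjusted p = 0.00874) was -0.27 (adjusted p = 0.145) without that library, contralateral replicate 1, -0.55 without injured replicate 1 and -0.58 without injured replicate 5, both under the fold threshold. With replicate numbers as a block it was -0.50 (adjusted p = 0.0631), and when these groups alone were fitted the adjusted p was 0.101. Chil3 had 139, 161, 162, 168 and 194 CPM in injured and 243, 258, 261 and 301 CPM in contralateral joints, with no overlap (log2 -0.70 ± 0.11, adjusted p = 1.48e-05). Of 12 neutrophil genes 6 were lower in these joints too, with sums of 9202–12950 CPM in injured and 15100–20100 CPM in contralateral libraries, and 4 of 10 resident macrophage genes were lower with a median log2 fold change of -0.52. The part of either cell type in the 2 changes was not tested. Chil3 has near-identical neighbouring copies, and how reads shared between them were counted is not given in the sources used here, so its level is uncertain.

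At 2-weeks Gpnmb was higher in the injured joints of all 3 strains. In MRL/MpJ 1 of 9 genes was called, against 1.16% of all genes, in C57BL/6 1 of 9, against 2.95%, and in STR/ort 3 of 9, against 4.66%. Gpnmb had 9.19, 14.9, 17.5, 18.1 and 21.3 CPM in injured and 6.38, 6.59, 6.67, 6.78 and 7.30 CPM in contralateral MRL/MpJ joints (log2 1.25 ± 0.19, adjusted p = 0.000149). It was at 11.1–15.9 against 7.07–11.3 CPM in C57BL/6 (log2 0.71 ± 0.19, adjusted p = 0.0189) and at 13.9–27.9 against 8.29–13.4 CPM in STR/ort (log2 0.69 ± 0.18, adjusted p = 0.00917). The C57BL/6 call was lost without contralateral replicate 4 (0.65, adjusted p = 0.0515) or 1 (0.67, adjusted p = 0.0537), and the STR/ort call without injured replicate 1 (0.47, adjusted p = 0.0577). In STR/ort Msr1 had 23.8, 24.6, 25.3, 28.4 and 37.3 CPM in injured and 11.8, 12.9, 13.5, 15.9 and 16.4 CPM in contralateral joints (log2 0.99 ± 0.15, adjusted p = 9.51e-06). Trem2 had 11.6, 11.8, 12.2, 13.3 and 14.1 CPM in injured and 4.33, 5.78, 6.96, 7.39 and 9.16 CPM in contralateral STR/ort joints (log2 0.91 ± 0.15, adjusted p = 2.86e-05). Neither gene's groups overlapped.

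Relative to the pan-macrophage mean, Gpnmb was higher in injured joints at 1-week in MRL/MpJ (1.12 ± 0.20, exact p = 0.00794) and C57BL/6 (0.62 ± 0.21, exact p = 0.0159) and at 2-weeks in MRL/MpJ (1.07 ± 0.19, exact p = 0.00794) and C57BL/6 (0.73 ± 0.17, exact p = 0.00794), all with adjusted p of 0.028 or 0.0415. In STR/ort it was not (0.17 ± 0.16, exact p = 0.325 at 1-week, and 0.36 ± 0.34, exact p = 0.325 at 2-weeks). Trem2 exceeded the mean in C57BL/6 at 1-week (0.73 ± 0.13) and 2-weeks (0.44 ± 0.10) and Msr1 in STR/ort at 2-weeks (0.69 ± 0.15), each with exact p = 0.00794 and adjusted p = 0.028. Chil3 lay below it in MRL/MpJ at 1-week (-0.43 ± 0.07) and in C57BL/6 (-0.33 ± 0.06) and STR/ort (-0.63 ± 0.16) at 2-weeks, with the same exact p. In all 81 such tests 11 were higher and 20 lower at an adjusted p under 0.05, and 44 had an unadjusted p under 0.05. With the median in place of the mean 14 of these 31 calls held, 17 were lost and 3 were gained. At 1-week and 2-weeks the calls given here for Gpnmb, Trem2 and Msr1 held and those for Chil3 were lost (-0.11 in MRL/MpJ, adjusted exact p = 0.315, and -0.24 and -0.52 in C57BL/6 and STR/ort, adjusted exact p = 0.0771). All these permutation tests treated the libraries as unpaired, although the labels pair them by mouse at 2-weeks. No paired version was run, and 5 pairs could not give an exact p as small as 0.00794.

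Partners of the 9 genes were described from lists named by pathway. Csf1, a ligand of Csf1r, rose at 1-day in MRL/MpJ (log2 0.71 ± 0.09, adjusted p = 2.98e-06) and STR/ort (0.61 ± 0.09, adjusted p = 7.39e-06) and had 0.40 in C57BL/6, under the fold threshold. The other ligand, Il34, was called in none of the 9 injury comparisons. Of the 6 genes measured in the list of the CSF1 receptor axis these 2 calls of Csf1 were the only ones at 1-day, and at 1-week Csf3r, the neutrophil growth factor receptor, fell in STR/ort (-0.65 ± 0.09, adjusted p = 7.63e-06). Tyrobp, the adaptor of Trem2, was called in no injury comparison, with log2 fold changes at 1-day of 0.07, -0.06 and 0.07 in MRL/MpJ, C57BL/6 and STR/ort. Of 14 genes of TREM2 signalling and lipid-associated macrophages 3 rose in C57BL/6 at 1-day, which were Apoe (lipid transport, 0.91 ± 0.08, adjusted p = 2.41e-09), Fabp5 (a fatty acid carrier, 0.76 ± 0.16) and Ctsl (a lysosomal protease, 0.65 ± 0.08). In STR/ort 1 rose, Plin2, which coats lipid droplets (0.62 ± 0.10). The median log2 fold changes of this list were 0.19, 0.42 and 0.11 in MRL/MpJ, C57BL/6 and STR/ort. Fabp5, Ctsl and Plin2 were chosen for naming after their values were seen.

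Among 12 other scavenger receptors 3 rose and 1 fell in MRL/MpJ at 1-day, 3 rose in C57BL/6, and 1 rose and 2 fell in STR/ort. At 1-week 5 rose in MRL/MpJ, 4 in C57BL/6 and 1 in STR/ort, and at 2-weeks 1 rose in C57BL/6 and 4 in STR/ort. Lrp1, an endocytic receptor of many ligands, rose at 1-day in MRL/MpJ (0.62, adjusted p = 0.000108) and C57BL/6 (0.69, adjusted p = 4.51e-06), at 1-week in the same strains (0.61 and 0.87) and at 2-weeks in STR/ort (0.61, adjusted p = 1.06e-05). Scara3 fell in STR/ort at 1-day (-0.74 ± 0.10, adjusted p = 3.93e-06) and rose at 1-week in MRL/MpJ (0.67 ± 0.12) and C57BL/6 (0.63 ± 0.11). Cd36, the fatty acid translocase, was called in no injury comparison. Cxcl16, a membrane-bound chemokine that also binds oxidised lipoprotein, rose at 1-day in all 3 strains (1.06 ± 0.18, 1.71 ± 0.15 and 0.80 ± 0.15), and Scara5 fell in MRL/MpJ (-0.96 ± 0.17) and STR/ort (-1.66 ± 0.16), both named after their values were seen. Of 10 genes of efferocytosis, the uptake of dead cells, 3 rose at 1-day in C57BL/6, among them Itgb5, an integrin subunit (0.72 ± 0.09, adjusted p = 1.03e-06). Gas6 and Axl, a bridging ligand and its receptor, were called in no injury comparison.

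Of 11 measured genes of alternative activation and amino acid metabolism 1 rose and 1 fell in MRL/MpJ at 1-day, 1 rose and 3 fell in C57BL/6, and 1 rose and 2 fell in STR/ort. The gene that rose was in each strain Il4ra, the receptor chain for interleukins 4 and 13 (1.47 ± 0.16, 1.47 ± 0.15 and 1.61 ± 0.15). Retnla, which like Chil3 marks alternatively activated macrophages, fell in all 3 strains (-1.92 ± 0.39, -2.05 ± 0.27 and -2.86 ± 0.28), and was named after its values were seen. Odc1, an enzyme of polyamine synthesis, was called in no injury comparison, and Slc7a2, a transporter of cationic amino acids, rose at 1-week in C57BL/6 (0.82 ± 0.13) and STR/ort (0.89 ± 0.14) and at 2-weeks in STR/ort (0.63 ± 0.14). Of 9 genes of haemoglobin and iron handling, the pathway of Cd163, 2 rose in STR/ort at 1-day: Hp, the haptoglobin gene (0.87 ± 0.12, adjusted p = 3.4e-06), and Hmox1, the haem oxygenase gene (1.03 ± 0.11, adjusted p = 3.04e-08, named after its values were seen). Of 8 genes of inflammatory macrophages Il1b rose at 1-day in C57BL/6 (0.62 ± 0.14) and STR/ort (0.77 ± 0.13), and Tnf in STR/ort (0.79 ± 0.19).

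Before injury the strains already differed in several of the 9 genes. At 0-day C57BL/6 against MRL/MpJ had 6 of 9 genes called, against 15.9% of all genes, STR/ort against C57BL/6 4 of 9, against 13.8%, and STR/ort against MRL/MpJ 3 of 9, against 14.8%. C57BL/6 was higher than MRL/MpJ in Chil3 (3.42-fold, log2 1.77 ± 0.09, adjusted p = 1.21e-10), Gpnmb (2.91-fold, log2 1.54 ± 0.17, adjusted p = 1.14e-06), Trem2 (1.94-fold), Cd163 (1.56-fold) and Csf1r (1.51-fold), and lower in Marco. Gpnmb was at 17.6, 18.4, 23.4 and 26.3 CPM in C57BL/6, 13.7, 17.6, 18.2 and 19.8 CPM in STR/ort, and 5.70, 7.06, 7.76 and 9.48 CPM in MRL/MpJ, so MRL/MpJ lay below both other strains, which overlapped. Cd163 was at 65.2–76.1 CPM in C57BL/6, 38.5–52.5 CPM in MRL/MpJ and 27.4–31.5 CPM in STR/ort, with no overlap between any strains. The call of Csf1r was lost without any 1 of the MRL/MpJ replicates 1, 3 and 4 and the C57BL/6 replicates 3 and 4, with values of 0.56 to 0.58 just under the fold threshold, that of Cd163 without MRL/MpJ replicate 4 (0.57), and that of Cd163 between STR/ort and MRL/MpJ without MRL/MpJ replicate 1 (-0.56). With 2 RUVg factors the calls of C57BL/6 over MRL/MpJ were lost for Gpnmb (1.24, adjusted p = 0.149), Cd163 (0.77, adjusted p = 0.121) and Csf1r (0.65, adjusted p = 0.0584), and that of Csf1r also with 1 factor, RLE size factors, DESeq2 and a fast muscle covariate. STR/ort was lower than C57BL/6 in Mrc1 (1.92-fold, log2 -0.94 ± 0.08), with 70.2–91.8 CPM against 141–161 CPM. Fast muscle genes differed between the same groups, with 8 of 8 lower in C57BL/6 than in MRL/MpJ and 7 of 8 higher in STR/ort than in C57BL/6, and 7 of 12 pan-macrophage genes were higher in C57BL/6 than in MRL/MpJ.

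The strains also differed in the contralateral joints of injured mice. At 1-day 5 of 9 genes were called between STR/ort and MRL/MpJ, against 22.6% of all genes, 4 between STR/ort and C57BL/6, against 10.5%, and 5 between C57BL/6 and MRL/MpJ, against 14.8%. At 1-week the counts were 5 of 9 (24.4% of all genes), 5 of 9 (22.2%) and 3 of 9 (8.53%), and at 2-weeks 4 of 9 (13.8%), 3 of 9 (9.78%) and 2 of 9 (9.83%), in the same order. Msr1 was higher in STR/ort than in MRL/MpJ at all 3 times, by 1.55-fold at 1-day (log2 0.63 ± 0.15), 3.01-fold at 1-week (log2 1.59 ± 0.23) and 1.62-fold at 2-weeks (log2 0.70 ± 0.16). The 1-day call was lost without any 1 of STR/ort replicate 1 and the MRL/MpJ replicates 3, 4 and 5 (0.52 to 0.58), and with a fast muscle covariate (0.56). Gpnmb was also higher in STR/ort than in MRL/MpJ, by log2 1.53 ± 0.17 at 1-day, 2.15 ± 0.18 at 1-week and 0.73 ± 0.20 at 2-weeks. Csf1r, a gene on chromosome 18, was at 182–227 CPM in STR/ort and 93.4–130.2 CPM in MRL/MpJ at 1-day and stayed higher in STR/ort at 1-week (log2 0.93 ± 0.10) and 2-weeks (log2 0.59 ± 0.10), where the call was lost without any 1 of the STR/ort replicates 4 and 5 and the MRL/MpJ replicates 2 and 5 (0.52 to 0.58). The 1-week call was lost with 1 RUVg factor (0.41) or 2 (0.45, adjusted p = 0.0876), and the 2-weeks call with 1 factor (0.52) or a fast muscle covariate (0.58). Cd163 was higher in C57BL/6 than in MRL/MpJ at 1-day (0.75 ± 0.10) and 1-week (0.67 ± 0.17) but was not called at 2-weeks, where it was at 36.6–45.6 and 35.5–39.8 CPM, and its 1-week call was lost with 2 RUVg factors (0.49, adjusted p = 0.29). Marker lists moved with the STR/ort and MRL/MpJ difference. Fast muscle sums were 29080–50500 CPM in STR/ort and 58960–76200 CPM in MRL/MpJ at 1-day and 26210–51260 and 58500–85950 CPM at 1-week, and 7 of 8 and 8 of 8 muscle genes were lower in STR/ort. Sums of the 10 resident macrophage genes were 915.1–1035 CPM in STR/ort and 644.9–690.7 CPM in MRL/MpJ at 1-day and 1014–1350 and 631.6–660.4 CPM at 1-week, with 7 of 10 higher and 1 lower in STR/ort at each time. At 2-weeks 4 were higher and 1 lower, and the muscle sums overlapped. The part of these lists in the differences was not tested.

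Injured joints also differed between strains. At 1-day STR/ort against C57BL/6 had 7 of 9 genes called, against 12.4% of all genes, C57BL/6 against MRL/MpJ 8 of 9, against 16.3%, and STR/ort against MRL/MpJ 3 of 9, against 20.3%. Injured STR/ort joints had more Msr1 (2.98-fold, log2 1.57 ± 0.13) than injured C57BL/6 joints, and less Gpnmb (4.66-fold, log2 -2.22 ± 0.16), Trem2 (2.15-fold), Mrc1 (adjusted p = 2.74e-10), Cd163 (1.81-fold), Chil3 (2.62-fold) and Marco. C57BL/6 was higher than MRL/MpJ in Gpnmb (6.01-fold), Trem2 (3.10-fold), Chil3, Csf1r, Mrc1 and Cd68, and lower in Msr1 (1.55-fold) and Marco. Of these, Msr1 lost its call without injured C57BL/6 replicate 2 (-0.55) or MRL/MpJ replicate 2 (-0.50), and Cd68 without C57BL/6 replicate 1 (0.58) or MRL/MpJ replicate 5 (0.57) and with RUVg factors or a fast muscle covariate (0.50 to 0.53). STR/ort was higher than MRL/MpJ in Msr1 (1.92-fold, log2 0.94 ± 0.13, adjusted p = 3.79e-07) and Csf1r (1.56-fold, log2 0.64 ± 0.08, adjusted p = 1.22e-07), both without overlap, and lower in Marco. Csf1r fell under the fold threshold with 1 or 2 RUVg factors (0.49 and 0.50) and with a fast muscle covariate (0.39). The pan-macrophage genes, of which 9 of 12 were higher in C57BL/6 than in MRL/MpJ, summed to 1251–1514 CPM in C57BL/6, 778.7–1009 CPM in MRL/MpJ and 1003–1481 CPM in STR/ort, and 6 of 12 were lower and 1 higher in STR/ort than in C57BL/6. The neutrophil sums were 10910–13920, 14840–19530 and 14180–17120 CPM in the same order. The part of these lists in the differences was not tested. The summed muscle level was 15730–40460 CPM in injured STR/ort joints and 41150–74180 CPM in those of MRL/MpJ.

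At 1-week 4 of 9 genes were called between injured joints of STR/ort and MRL/MpJ, against 29.5% of all genes, 5 between STR/ort and C57BL/6, against 25.1%, and 1 between C57BL/6 and MRL/MpJ, against 9.47%. At 2-weeks the counts were 3 of 9 (18.9% of all genes), 4 of 9 (10.4%) and 1 of 9 (11.5%). Msr1 was higher in injured STR/ort joints than in those of MRL/MpJ and C57BL/6 at 1-week (log2 1.37 ± 0.19 and 1.75 ± 0.19) and at 2-weeks (1.26 ± 0.15 and 1.26 ± 0.15), although the 1-week call against MRL/MpJ was lost with 2 RUVg factors (1.43, adjusted p = 0.0541). At 1-week the fast muscle sums of injured joints were 13270–29170 CPM in STR/ort, 41680–69430 CPM in MRL/MpJ and 26610–52480 CPM in C57BL/6, with 8 of 8 genes lower in STR/ort than in either. The resident macrophage sums were 994.2–1092, 691.1–731.7 and 681.2–729.3 CPM, and their part in the difference of Msr1 was not tested. Trem2 was higher in injured STR/ort joints than in those of MRL/MpJ and C57BL/6 at 2-weeks (0.84 ± 0.14 and 1.00 ± 0.15). At that time the resident macrophage sums of injured joints were 848.3–946.4 CPM in STR/ort, 550.1–650.7 CPM in MRL/MpJ and 606.9–704.9 CPM in C57BL/6, and the fast muscle sums overlapped. The part of these lists in the 2-weeks differences of Msr1 and Trem2 was not tested. The gene called between C57BL/6 and MRL/MpJ at both times was Chil3 (1.79 ± 0.10 and 1.48 ± 0.13). Chil3 was between 492 and 1002 CPM in every C57BL/6 library of the series and between 117 and 301 CPM in every MRL/MpJ and STR/ort library. The alignment used the C57BL/6J genome, and the effect of strain variants on counting was not tested.

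Marco, a class A scavenger receptor with a collagenous stalk that binds bacteria and particles, was almost undetected in STR/ort. It had 0 counts in 27 of the 33 STR/ort libraries, 9 counts in all and at most 2 in a library. At 0-day it was at 1.60, 2.07, 2.41 and 2.44 CPM in MRL/MpJ and 0.482, 0.548, 0.785 and 1.54 CPM in C57BL/6, which did not overlap. A count of 0 allows a limit of 3 counts over the group. Against it, Marco of injured STR/ort joints at 1-day was at least 40.7-fold below the pooled MRL/MpJ level and 14.8-fold below that of C57BL/6. This bound allows for counting error in STR/ort only and takes the pooled level of the other strain as it stands. The same bound was 25.1- and 22.1-fold in contralateral joints at 1-week and 12.3- and 6.8-fold in injured joints at 2-weeks. The bound of 22.1 was 13.8 without contralateral replicate 2 of C57BL/6, which held 42 of its 89 counts, and that of 6.8 was 4.18 without injured replicate 4. With 1 MRL/MpJ library left out, the bound of 40.7 was at lowest 32.6 (without injured replicate 3), that of 25.1 was 21.9 and that of 12.3 was 10.4. The bound of 14.8 was at lowest 13.3 with 1 C57BL/6 library left out. These checks were added after seeing the data. Where STR/ort had 1 to 4 counts in a group, MRL/MpJ was higher by ratios between 22.8 (95% interval 8.62–85.3, injured joints at 1-week) and 76 (13.2–3050, at 0-day), and C57BL/6 by ratios between 18.5 (2.93–772, contralateral joints at 2-weeks) and 30.2 (5.1–1230, at 0-day), of which the ratio of 25.7 in injured joints at 1-week was 12.1 without C57BL/6 replicate 2. These intervals are exact for pooled counts and cover counting error only. The 1-week edgeR calls of STR/ort below MRL/MpJ and C57BL/6 were lost with 1 or 2 RUVg factors in injured and contralateral joints (adjusted p from 0.104 to 0.386). With a fast muscle covariate those of injured joints were lost against MRL/MpJ (log2 -1.21, adjusted p = 0.527) and C57BL/6 (-2.12, adjusted p = 0.172). So was that of contralateral joints against MRL/MpJ (-4.82, adjusted p = 0.0784). Marco was also lower in C57BL/6 than in MRL/MpJ at 0-day (log2 -1.28 ± 0.36, adjusted p = 0.00918), in contralateral joints at 1-day (-1.77 ± 0.37, adjusted p = 0.000494) and in injured joints at 1-day (-1.42 ± 0.45, adjusted p = 0.0133). The 0-day call was lost with RUVg factors or a fast muscle covariate and turned sign with 2 factors, and the injured one missed the threshold when MRL/MpJ replicate 3 (-1.10, adjusted p = 0.0642) or C57BL/6 replicate 4 was left out (-1.19, adjusted p = 0.0537) or 2 RUVg factors were used (-1.44, adjusted p = 0.0625). In contralateral joints at 2-weeks it was lower too, with overlapping groups (-1.27 ± 0.46, adjusted p = 0.048), a call lost with DESeq2, with 2 RUVg factors and in 6 of 10 fits that left out 1 library. It was not called at 1-week (0.19 ± 0.54 in injured and -0.13 ± 0.61 in contralateral joints) or in injured joints at 2-weeks (-0.84 ± 0.48). At 1-week C57BL/6 replicate 2 stood high in both its injured (6.77 CPM) and its contralateral library (5.51 CPM), where the other libraries had at most 1.47 CPM.

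Over time, within the first batch, the contralateral joints of STR/ort had the most calls among the 9 genes. In MRL/MpJ 0 of 9 genes were called at 1-day over 0-day (0.0924% of all genes) and 0 at 1-week over 0-day (0%), and in C57BL/6 0 at 1-day over 0-day (0.0693%), with 0 genes at an unadjusted p under 0.05 and 0 called by DESeq2 in each. Over all genes the MRL/MpJ comparison of 1-week with 0-day had 0 called with edgeR, 991 at an unadjusted p under 0.05 and 0 called by DESeq2. In C57BL/6 2 of 9 were called at 1-week over 0-day, against 5.72% of all genes, both lower: Trem2 (log2 -0.70 ± 0.20, adjusted p = 0.00968) and Gpnmb (-0.77 ± 0.17, adjusted p = 0.001). In the same comparison 7 of 8 osteoblast genes were called lower, with sums of 2372–3305 CPM at 0-day and 1403–2007 CPM at 1-week, and 1 of 9 osteoclast genes was called lower. The fast muscle sums of 31210–50350 CPM at 0-day and 39920–69460 CPM at 1-week overlapped, with medians of 42420 and 64030 CPM. The part of these cell types in the changes of Trem2 and Gpnmb was not tested. In STR/ort 5 of 9 were called at 1-day over 0-day, against 9.92% of all genes, and 7 of 9 at 1-week over 0-day, against 13.6%, all higher. These 2 comparisons share the 0-day libraries. Msr1, Mrc1, Trem2, Gpnmb and Cd68 were higher by log2 0.71, 0.71, 0.71, 0.66 and 0.71 at 1-day and by 1.10, 0.74, 0.86, 0.92 and 0.72 at 1-week, joined at 1-week by Cd163 (1.10 ± 0.15) and Chil3 (0.71 ± 0.11). Cd163 was at 27.4–31.5 CPM at 0-day and 41.6–106 CPM at 1-week without overlap. The call of Gpnmb at 1-day was lost without the contralateral replicate 1 (0.58) or the 0-day replicate 2 (0.58), and that of Cd68 at 1-week without contralateral replicate 1 (0.58).

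Fast muscle RNA fell in the same STR/ort comparisons, as 8 of 8 muscle genes were called lower at both times. The median of the summed level went from 73050 CPM at 0-day to 36080 CPM at 1-day and 29080 CPM at 1-week, and 6 of 12 pan-macrophage genes were called higher at each time. Osteoclast genes rose as well at 1-week (7 of 9 called higher), and Gpnmb is expressed by osteoclasts too. With the muscle level as a covariate, Msr1 (0.58, adjusted p = 0.12), Trem2 (0.60, adjusted p = 0.123) and Cd68 (0.42) lost their calls at 1-day, and Trem2 (0.73, adjusted p = 0.0512), Cd68 (0.39) and Chil3 (0.42) at 1-week. Mrc1 and Gpnmb at both times and Msr1 and Cd163 at 1-week were called with it. With RUVg factors, however, the 1-day calls were lost for Gpnmb (0.67, adjusted p = 0.123 with 1 factor, and 0.74, adjusted p = 0.0902 with 2), Msr1 (0.65 and 0.63, adjusted p = 0.176 and 0.222), Cd68 (0.40 and 0.39), Trem2 with 1 factor (0.71, adjusted p = 0.153) and Mrc1 with 2 (0.57). At 1-week Cd68 (0.45 and 0.44) and Chil3 (0.37 and 0.35) lost theirs with 1 and 2 factors.

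**Figure D4:**
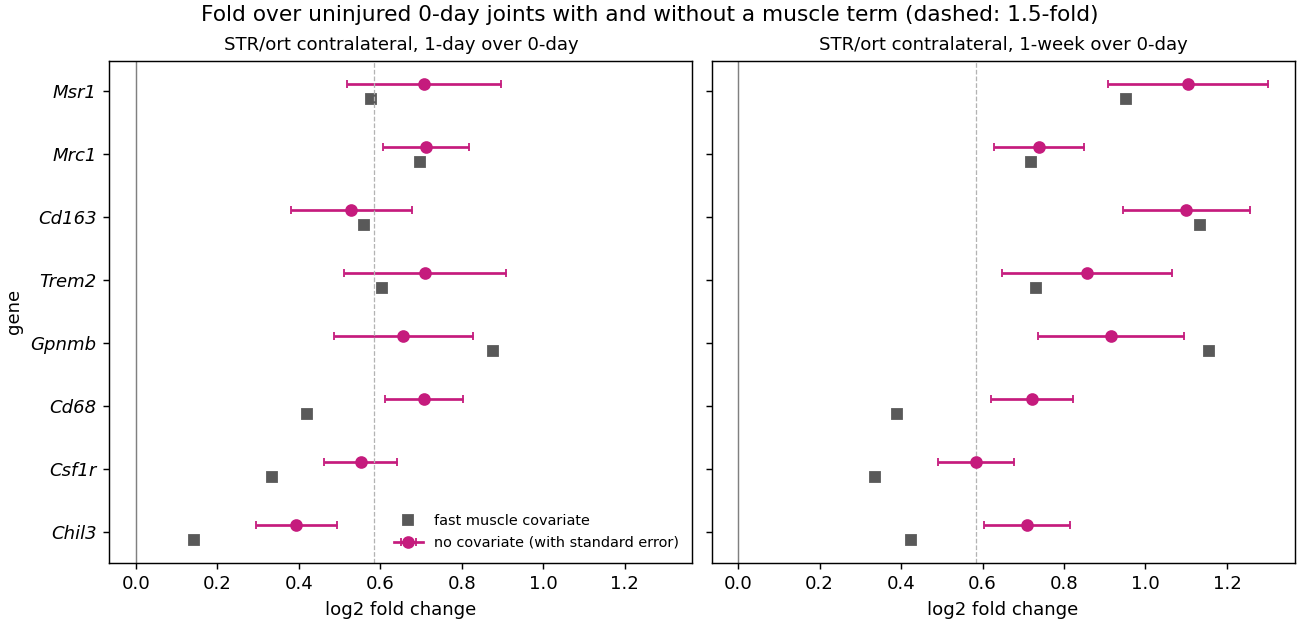
Log2 fold change of STR/ort contralateral joints over 0-day joints at 1-day and 1-week, with its standard error, and the same value with the fast muscle level of each library as a covariate (squares), for the genes but Marco. Dashed lines mark 1.5-fold, and the squares of Cd68, Csf1r and Chil3 lie below the circles by more than a standard error at both times.

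In injured joints Msr1 was lower at 1-week than at 1-day in all 3 strains. From 1-day to 1-week 2 of 9 genes were called in MRL/MpJ, against 3.11% of all genes, 6 of 9 in C57BL/6, against 4.47%, and 2 of 9 in STR/ort, against 13.9%. The log2 fold change of Msr1 was -1.68, -1.43 and -1.26 in MRL/MpJ, C57BL/6 and STR/ort. Gpnmb rose from 1-day to 1-week in MRL/MpJ (1.33 ± 0.17, adjusted p = 3.22e-08) and STR/ort (1.92 ± 0.16, adjusted p = 2.69e-15) and fell in C57BL/6 (-1.17 ± 0.15, adjusted p = 3.38e-08), the strain in which it had been high at 1-day. C57BL/6 also had lower Trem2 (-1.53 ± 0.16), Cd68 (-0.83 ± 0.09) and Csf1r (-0.67 ± 0.08, and -0.57 with 2 RUVg factors, under the fold threshold) at 1-week than at 1-day, where 9 of 12 pan-macrophage genes were lower. Its rise of Marco (1.54, adjusted p = 0.044) rested on 1 library and was 0.47 (adjusted p = 0.637) without injured replicate 2 of 1-week. It also missed the threshold without any 1 of the 1-day injured replicates 1, 3, 4 and 5 (1.31 to 1.68), and with RUVg factors, a fast muscle covariate or a fit of those groups alone (1.00 to 1.54).

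Across the 21 group means of log2 CPM, the pair of genes most alike was Mrc1 and Cd163 (Pearson's r = 0.835), followed by Msr1 and Trem2 (r = 0.737), and the least alike were Marco and Csf1r (r = -0.633). These are descriptions over groups that share strains and a batch. Of all genes with a mean of at least 1 CPM, those most like Msr1 were Cxcl14 (r = 0.936), Il11 (r = 0.931) and Ptx3 (r = 0.93). Trem2 was followed most closely by Rbpj (r = 0.945), Bmper (r = 0.934) and C3ar1 (r = 0.932), Gpnmb by Meox2 (r = 0.913), Cd248 (r = 0.909) and Kera (r = 0.906), and Cd68 by genes that included Slc37a2 (r = 0.944) and Myo5a (r = 0.938). For Csf1r they were Ifi30 (r = 0.938), Npc2 (r = 0.936) and Efemp1 (r = 0.934), for Mrc1 Cep112 (r = 0.914), Fkbp1b (r = 0.901) and Arhgap1 (r = 0.89), and for Cd163 H2-M3 (r = 0.931), Iah1 (r = 0.912) and Mpp1 (r = 0.911). Marco was most like Myh10 (r = 0.969), Ccp110 (r = 0.961) and Ccdc180 (r = 0.956), and Chil3 most like 2610507I01Rik (r = 0.979), Nsun3 (r = 0.976) and Hba-a2 (r = 0.972).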

How the data were processed

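Total RNA of whole knee joints was purified with the RNeasy kit, and poly(A) libraries were made with the TruSeq kit. For alignment the authors used TopHat2 (version 2.0.11, a version that the submitters' processing notes also give) with mm10, and featureCounts then assigned reads to RefSeq genes. The deposited values are raw counts. The setting for strand and the treatment of reads shared by several genes are not given in the sources used here. Of 17313 listed genes, 3 that appear again under the same name were left out, and 24 names turned into dates by a spreadsheet were kept as they stand. A minimum of 2 counts in 5 or more libraries, as in the study's methods, left the number of genes unchanged.

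From these counts CPM were computed with TMM factors, and log2 CPM with a prior count of 2. The test was the quasi-likelihood test of edgeR 4.0.16 under R 4.3.3, with Benjamini-Hochberg adjustment over all 17310 genes. The 12 0-day libraries, the libraries of each later time point and, for time comparisons, the 70 libraries of batch 1 entered separate fits with 1 mean per group, which gave 48 comparisons and 432 tests of the 9 genes. Members were also set against 12 pan-macrophage genes per library by exact permutation tests, which treated all libraries as unpaired. The genes named were the 9 members, of each list up to 4 genes by mean CPM with Csf1, Il34, Tyrobp and Adgre1, and the 3 genes most like each member. The members and the lists were chosen with earlier results of these data known, and 1 further gene of the list is not reported here.

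Alternatives were RLE size factors, RUVg with 1 or 2 factors from the study's 25 housekeeping genes, DESeq2 (version 1.42.0), other filters, fits of the compared groups only, a replicate block and leaving out each library, and a fast muscle covariate was added after seeing the data. Only the 2-weeks labels name the animal, so injured and contralateral libraries are paired there by the labels. At 1-day and 1-week libraries share only a number. There every same-numbered pair deviated together in STR/ort (r from 0.162 to 0.37) and MRL/MpJ (0.0845 to 0.177) at 1-week and in C57BL/6 at 1-day (0.0586 to 0.144). In the rest of these groups r had both signs. Pairs named by the labels at 2-weeks had r from -0.279 to 0.0824 in MRL/MpJ, 0.183 to 0.271 in C57BL/6 and 0.213 to 0.449 in STR/ort. Such values therefore do not tell which libraries came from the same mouse. Nothing else says which libraries came from separate mice, so p-values measure the spread between these libraries. The script was tested on simulated data. The positions and promoters are from RefSeq on GRCm38.p6, with 250 bases before each start used.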

Additional observations from a re-analysis of the deposited data

Results flagged for a closer look

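In 189 groups of 4 or 5 libraries, 8 held 1 library that stood apart from the others of its group by Dixon's test at 95%, which chance does in about 1 of 20 groups. Msr1 was at 20 CPM in injured replicate 2 of MRL/MpJ at 1-week, with the others at 13.1 to 14.5 CPM. Marco was at 3.7 CPM in injured replicate 3 of MRL/MpJ at 1-day and at 6.77 and 5.51 CPM in the injured and contralateral libraries of C57BL/6 replicate 2 at 1-week. In STR/ort replicate 1 at 0-day (0.097 CPM) and contralateral replicate 5 at 2-weeks (0.0902 CPM) a single count of Marco stood against 0 in the others. Cd68 was at 43.8 CPM in contralateral replicate 2 of MRL/MpJ at 1-day, and Csf1r at 232 CPM in contralateral replicate 4 of C57BL/6 at 1-day.

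The response to injury differed between strains in 8 tests of the interaction. At 1-day these were Gpnmb (log2 -1.16), between STR/ort and MRL/MpJ, Mrc1 (-0.783), Trem2 (-1.52) and Gpnmb (-2.29), between STR/ort and C57BL/6, and Trem2 (1.1) and Gpnmb (1.13), between C57BL/6 and MRL/MpJ. At 1-week they were Gpnmb (-1.19) and Chil3 (-0.59), between STR/ort and MRL/MpJ. The adjusted p of these edgeR tests and the libraries on which they rest are given above.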

How the results depend on the processing

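Of the 136 member calls 114 held in every fit that left out 1 library, 22 were lost in some and 0 turned sign. In these fits there were 17 to 21 calls for the injury effect, 6 to 9 for the interaction of strain and injury, 11 to 15 at 0-day, 33 to 37 in contralateral joints, 35 to 38 in injured joints and 23 to 26 over time. By comparison, members called were 3 to 5 in C57BL/6 at 1-day (5 without contralateral replicate 5), 1 to 3 in MRL/MpJ and 1 to 3 in STR/ort at 1-week and 0 to 1 in C57BL/6 at 2-weeks. Of the 432 member tests RLE size factors changed 3 calls, RUVg with 1 factor lost 22 and gained 4, RUVg with 2 factors lost 28, gained 15 and reversed 1, and the fast muscle covariate, chosen after seeing the data, lost 19 and gained 3. DESeq2 lost 3 and gained 2 of 427, a fit of the compared groups only lost 5 and gained 4, edgeR's filterByExpr gained 3 of 420, and no filter changed none. The cause of these changes was not tested. At 0-day the members called in C57BL/6 over MRL/MpJ were 2 in place of 6 with RUVg with 2 factors, where Marco came to 0.70 (adjusted p = 0.864). At 1-week members called were 1 in place of 2 in MRL/MpJ with the fast muscle covariate and 1 in place of 3 in STR/ort with a fit of the compared groups only. With the median in place of the mean of the pan-macrophage genes 17 of 81 tests passed in place of 31. With a replicate block the injury effect had 19 calls and the interaction 9: Cd163 of STR/ort at 1-week was lost (-0.50), Trem2 of MRL/MpJ at 1-week was gained (0.72, adjusted p = 0.00771, though the labels' library numbers leave it unclear whether replicate numbers mark the mouse there), Msr1 gained the 1-day interaction of STR/ort and C57BL/6 (0.62, adjusted p = 0.022), and no other call changed. Depth limits Marco, which had few counts in many libraries.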
